A study of Homo sapiens with 9 samples.

Results

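The guanylate-binding proteins (GBP) and the apolipoprotein L proteins (APOL) are families of interferon-induced genes. The members described are the 9 genes GBP1, GBP2, GBP3, GBP4, GBP5, APOL1, APOL2, APOL3 and APOL6, taken by symbol from the 29740 genes of the deposited counts. They were chosen by family and by their counts at 48H against controls, which earlier results had shown, so their values at 48H are a description without a test. RNA was measured in HMEC-1, an established line of human dermal microvascular endothelial cells immortalised with the SV40 large T antigen. The groups were CTRL (untreated), TMAO 24H and TMAO 48H, the last 2 treated with 50 µM trimethylamine N-oxide (TMAO) for 24H or 48H, with 3 libraries each. TMAO is a metabolite made by the host from a product of gut bacteria. The treatment medium was low in serum, and the control libraries carry no time label. By the study's methods, untreated cells of the 24H and 48H time-points were combined as controls, so each difference from CTRL at either time includes any effect of time in culture, which cannot be told apart from the treatment. The libraries come from 1 line, and nothing in the labels says that they are separate cultures, so p-values measure the spread between these libraries, which may be technical.

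GBPs are large GTPases of the dynamin superfamily. They assemble on pathogen membranes inside the cell, where they help caspase-4 to detect bacterial lipopolysaccharide, and GBP1 restrains the growth and spreading of endothelial cells exposed to inflammatory cytokines. APOL proteins bind lipids and act on membranes, and APOL1 is the secreted member that circulates on lipoprotein particles and kills trypanosomes. Interferon gamma induces both families through the kinases JAK1 and JAK2 and the GAS element, and through IRF1, which binds the interferon-stimulated response element (ISRE), and TNF adds NF-kB.

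The promoters that could be matched are shown because these are the elements through which interferon and TNF are known to reach the genes. Of the 9 members, 3 (GBP1, GBP3 and GBP4) have an entry in the RefSeq promoter table, build GRCh38.p14, and the sequences are written 5′ to 3′ on the gene's strand, with matches to a searched motif in capitals.
GBP1: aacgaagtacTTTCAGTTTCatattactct
GBP3: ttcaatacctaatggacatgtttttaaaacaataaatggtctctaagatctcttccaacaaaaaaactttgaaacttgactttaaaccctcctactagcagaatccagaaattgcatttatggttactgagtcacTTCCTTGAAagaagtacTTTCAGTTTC
GBP4: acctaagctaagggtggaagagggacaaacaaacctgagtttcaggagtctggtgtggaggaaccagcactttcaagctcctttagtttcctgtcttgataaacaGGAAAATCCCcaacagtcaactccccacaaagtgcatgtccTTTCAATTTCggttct

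The GBP1 stretch is chr1:89065316-89065345, the GBP3 stretch chr1:89022855-89023016 and the GBP4 stretch chr1:89198931-89199092, all on the minus strand. The search covered both strands of 300 bases per gene, 250 of them before the RefSeq start. An ISRE core (GAAA, any 2 bases and GAAA, which reads TTTC, any 2 bases and TTTC on the other strand) was found in each of the 3 promoters, against 3.57% of all 35116 promoters of that length. It lay from base -127 to -118 in GBP1, from 3 to 12 in GBP3 and from -4 to 6 in GBP4, counted from the RefSeq start with no base 0. GBP3 also held a GAS match (TTCNNNGAA) from base -15 to -7, a motif found in 7.66% of promoters. GBP4 also held an NF-kB match from base -45 to -36, found in 5.91% of promoters. In these 3 promoters no matches overlapped. GBP6 and GBP7, GBP genes outside the members, also had promoters in this search, and neither held an ISRE core. GBP6 held none of the searched motifs and GBP7 an NF-kB match only. GENCODE 29 places the start of GBP1 152 bases and that of GBP3 16 bases upstream of the RefSeq start, so positions depend on the annotation. By GENCODE 29 the matches printed for GBP1 and GBP3 lie downstream of the start and not before it. For GBP1 only the 30 bases around its match are printed. A match describes the letters of the window and not binding in these cells.

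Total counts per library ranged from 25205756 to 36927373. Ribosomal RNA genes took 31.5% of the counts of TMAO 24H replicate 1 and from 1.64% to 7.46% in each of the others. TMAO 48H replicate 3 stood apart in several epithelial genes, with 125 normalised counts of KRT5 against 763 to 1630 in the other libraries, and with 67.9 of KRT14 against 552 to 1067. It also had 38.0 of EPCAM against 202 to 290 and 34.5 of CDH1 against 84.6 to 156, while KRT8 and KRT18 lay within the range of the others. The normalised count is the count divided by the library's effective size (TMM) and multiplied by the mean effective size, and 3 counts, taken as the floor, correspond to 2.64 to 3.49 normalised counts. The summed level of 10 endothelial markers was 62761 to 72108 normalised counts in controls, 63904 to 67508 at 24H and 56533 to 61635 at 48H, and PECAM1 and CDH5 were expressed throughout. Of these 10 markers, 5 (PECAM1, CDH5, KDR, TIE1 and ERG) were lower at 48H than in controls (edgeR adjusted p under 0.05). Of all genes tested, 5.29% were lower. At 24H 0 of the 10 passed with edgeR and 1 was lower with DESeq2. Among 8 leukocyte markers, CD3E was at 0 in every library and PTPRC and ITGAM were at most 3.02 normalised counts. The sum of these 8 was 595 to 681 normalised counts in controls, 654 to 700 at 24H and 675 to 722 at 48H, nearly all of it CD68. The 7 fibroblast markers summed to 29181 to 34025 normalised counts in controls, 29422 to 31801 at 24H and 18733 to 20461 at 48H. Most of that sum was COL1A1 and COL1A2, and DCN and LUM had at most 2.24 normalised counts in any library. The 6 epithelial markers summed to 23237 to 25403 normalised counts in controls, 21941 to 23306 at 24H and 19120 to 21594 at 48H, most of it KRT18. The part of these shifts in the results at 48H was not tested. In bulk RNA, a change in the number of cells of a type and a change in RNA per cell cannot be told apart.

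Levels can be compared between genes only per length, here as normalised counts per kb of merged exons in GENCODE 29. In controls APOL3 was highest, with 804 ± 27.4 (SD, n = 3) normalised counts per kb, and APOL2 followed with 648 ± 6.15 (SD, n = 3). GBP1 (464 ± 24.5, SD, n = 3) and GBP3 (459 ± 15.5, SD, n = 3) came next on this scale, and their control libraries overlapped. APOL6 (98.2 ± 6.16, SD, n = 3) and GBP2 (92.7 ± 12.8, SD, n = 3) also overlapped each other. APOL1 had 66.6 ± 1.68 (SD, n = 3) normalised counts per kb and GBP4 10.3 ± 1.84 (SD, n = 3). GBP5 was at the limit of detection, with 0, 3 and 0 counts in controls, 0, 0 and 1 at 24H and 1, 2 and 0 at 48H. It did not pass the expression filter, and the other 8 members were fitted. At 48H GBP1 had 606 ± 3.79 (SD, n = 3) normalised counts per kb and no longer overlapped GBP3, at 489 ± 18.4 (SD, n = 3).

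**Figure D1:**
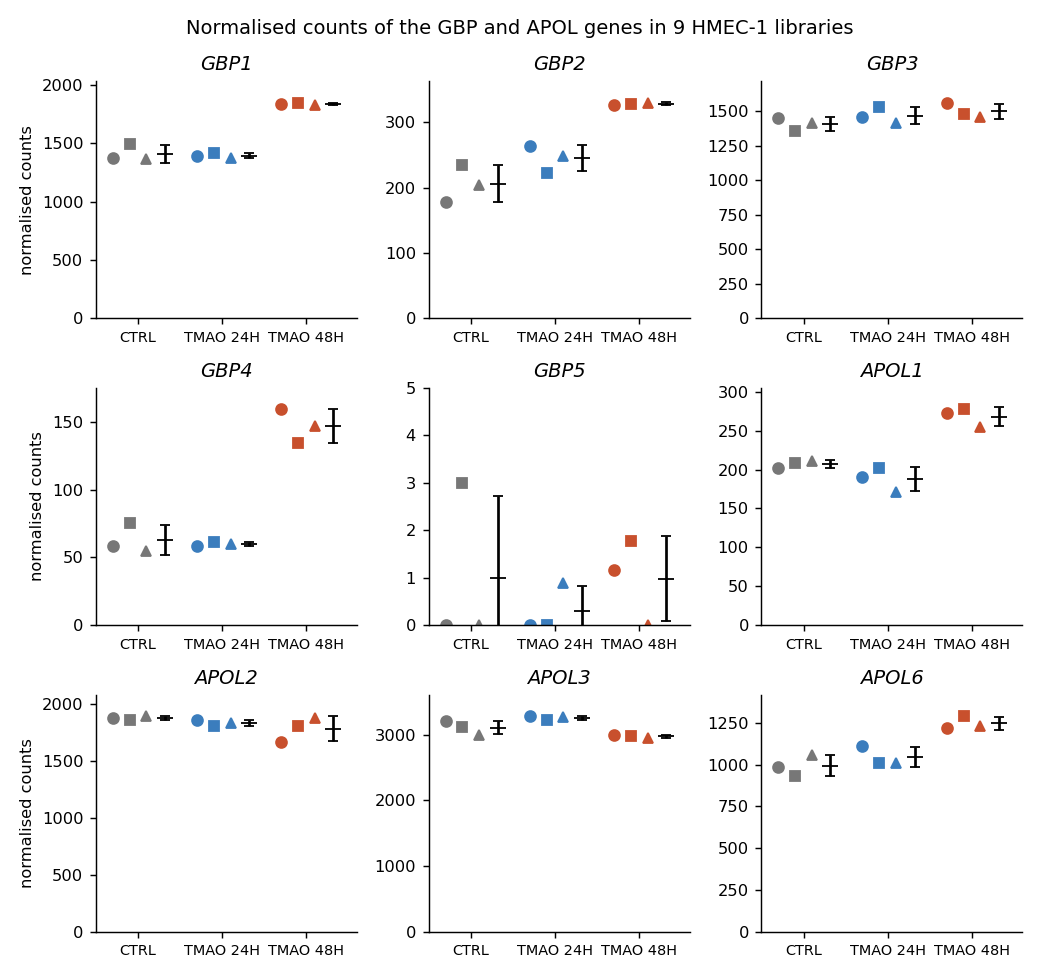
Normalised counts (vertical axis, starting at 0) of the 9 GBP and APOL genes in CTRL, TMAO 24H and TMAO 48H; circles, squares and triangles are replicates 1, 2 and 3, and black bars are the mean ± SD of 3 libraries, clipped at 0 for GBP5. GBP1, GBP2, GBP4, APOL1 and APOL6 lie higher in all 3 TMAO 48H libraries than in the other 6, and APOL2 and APOL3 do not.

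Among the 4 fitted GBP genes, the difference between 48H and controls ranged from 2.34-fold for GBP4 to 1.07-fold for GBP3. GBP4, which joins the GBP1 coat on bacteria, had 58.4, 75.7 and 54.4 normalised counts in controls, 58.3, 61.7 and 60.0 at 24H and 159, 135 and 147 at 48H. Each 48H library was above all 6 others, while the 24H libraries lay inside the control range. The log2 fold change of GBP4 at 48H against controls was 1.23 (standard error 0.155), or 2.34-fold.

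GBP2, a prenylated GBP that is recruited to membranes, had 178, 235 and 205 normalised counts in controls, 263, 223 and 249 at 24H and 326, 328 and 330 at 48H. The 24H libraries overlapped the controls, and the 48H libraries were above both groups and close to each other, with an SD of 2.17 normalised counts against 28.4 in controls. Its log2 fold change at 48H was 0.67 (standard error 0.108), or 1.59-fold.

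GBP1, the farnesylated GBP that starts the coat, had 1371, 1495 and 1363 normalised counts in controls, 1396, 1415 and 1374 at 24H and 1839, 1850 and 1827 at 48H. The 24H libraries lay within the range of the controls and the 48H libraries above both. The log2 fold change of GBP1 at 48H was 0.38 (standard error 0.0466), or 1.30-fold.

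GBP3, a close relative of GBP1 without a prenylation site, showed the smallest difference of the 4 fitted GBP genes. Its libraries had 1450, 1357 and 1420 normalised counts in controls, 1461, 1536 and 1414 at 24H and 1564, 1480 and 1458 at 48H. The 48H libraries were above the controls by a narrow margin and overlapped the 24H libraries. The log2 fold change of GBP3 at 48H was 0.091 (standard error 0.0498).

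The APOL genes divided into a pair that was higher at 48H and a pair that was not. APOL1 had 202, 209 and 212 normalised counts in controls, 190, 201 and 171 at 24H and 272, 277 and 254 at 48H. All 24H libraries were below the controls, by as little as 0.14 normalised counts, and all 48H libraries were above them. The log2 fold change of APOL1 at 48H was 0.37 (standard error 0.0957), or 1.29-fold.

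APOL6, an intracellular member linked to cell death, had 987, 935 and 1059 normalised counts in controls, 1112, 1010 and 1010 at 24H and 1222, 1290 and 1229 at 48H. Controls and 24H libraries overlapped, and the 48H libraries were above both. Its log2 fold change at 48H was 0.33 (standard error 0.0597), or 1.26-fold.

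APOL3, which dissolves bacterial membranes in cells exposed to interferon gamma, had 3205, 3122 and 2994 normalised counts in controls, 3279, 3226 and 3260 at 24H and 2996, 2981 and 2953 at 48H. The 24H libraries were above the controls, and the 48H libraries overlapped the lowest of them. The log2 fold change of APOL3 was -0.062 (standard error 0.0382) at 48H against controls and -0.13 (standard error 0.0382) at 48H against 24H.

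APOL2, an intracellular member, had 1882, 1861 and 1896 normalised counts in controls, 1859, 1810 and 1833 at 24H and 1666, 1807 and 1884 at 48H. Its 48H libraries were spread more widely than the other groups and overlapped both. The log2 fold change at 48H was -0.074 (standard error 0.0478).

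**Figure D2:**
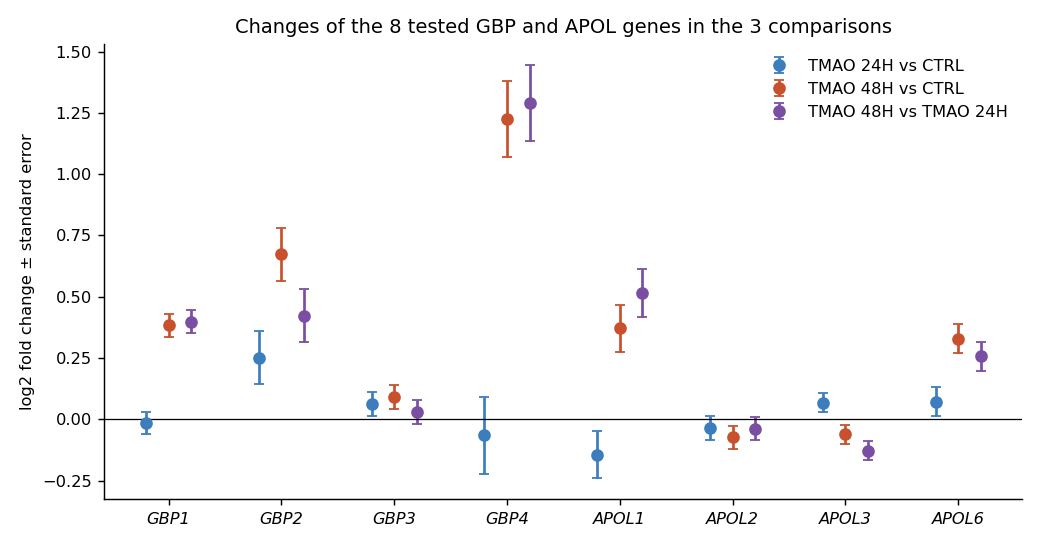
Log2 fold changes (vertical axis) with standard errors from edgeR for the 8 fitted GBP and APOL genes, for TMAO 24H against CTRL (blue), TMAO 48H against CTRL (orange) and TMAO 48H against TMAO 24H (purple). The values at 24H lie between -0.14 and 0.25, and GBP4 has the highest value at 48H, 1.23.

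The question of the first time-point is whether any member differed after 24H. With edgeR's quasi-likelihood test, 0 of the 8 fitted members had an adjusted p under 0.05 at 24H, against 0.095% of the 14740 genes tested (0.0475% with at least 1.4-fold in addition), and DESeq2 also gave 0. The count was also 0 without TMAO 24H replicate 1, the library rich in ribosomal RNA. GBP2 alone had an unadjusted p under 0.05, with a log2 fold change of 0.25 (standard error 0.108, adjusted p = 0.67). The values of the other members at 24H were -0.015 for GBP1 (adjusted p = 0.978), 0.061 for GBP3 (adjusted p = 0.869), -0.066 for GBP4 (adjusted p = 0.976), -0.14 for APOL1 (adjusted p = 0.819), -0.035 for APOL2 (adjusted p = 0.943), 0.067 for APOL3 (adjusted p = 0.779) and 0.072 for APOL6 (adjusted p = 0.876). The median of the 8 log2 fold changes was 0.023, beside -0.00042 over all genes tested. Without CTRL replicate 2, the values of GBP1 and GBP4 at 24H were above 0, at 0.029 and 0.088. In 1 member (APOL3) all 24H libraries were above the controls and in 2 (APOL1 and APOL2) below them, patterns found in 6.73% and 7.52% of all genes.

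At 48H against controls, 6 of the 8 fitted members had higher means and 2 lower, with a median log2 fold change of 0.35 beside 0.0040 over all genes. GBP1, GBP2, GBP4, APOL1 and APOL6, 5 of the 8, had an adjusted p under 0.05 and a higher level, as did 5.14% of all genes (10.4% in either direction). GBP2 and GBP4 also exceeded 1.4-fold, as did 0.882% of all genes in that direction and 1.8% in either. The choice of members used this contrast, so nothing is read from these counts. All 48H libraries were above all controls in 6 members, against 14.7% of all genes. Counts without single libraries rest on the same contrast, and nothing is read from them either. Without TMAO 48H replicate 3, the library low in KRT5, KRT14, EPCAM and CDH1, the same 5 members had an adjusted p under 0.05. APOL1 left this count, which became 4, without CTRL replicate 1, 2 or 3 and without TMAO 48H replicate 1 or 2.

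Compared with the 24H libraries, which had the shorter treatment, the 48H libraries were higher by 1.29 on the log2 scale for GBP4 (standard error 0.155), 0.51 for APOL1 (standard error 0.0959), 0.42 for GBP2 (standard error 0.108), 0.40 for GBP1 (standard error 0.0466) and 0.26 for APOL6 (standard error 0.0596). GBP3 differed by 0.029 and APOL2 by -0.039, values that changed sign without TMAO 48H replicate 1. The 48H libraries also spent longer in low-serum medium than the 24H libraries, so time in culture and length of treatment cannot be told apart here. This comparison uses the same 48H libraries as the choice of members and is likewise a description. In 5 members all 48H libraries were above all 24H libraries and in APOL3 below them, against 14.7% and 13% of all genes, and 5 had an adjusted p under 0.05 and a higher level, as did 3.77% of all genes (7.53% in either direction). GBP4 and APOL1 also exceeded 1.4-fold, as did 0.862% of all genes in that direction and 1.71% in either. The number of 5 was 3 without TMAO 24H replicate 2 or 3 or TMAO 48H replicate 2.

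Sequence shared with other genes limits a few of these values. Of the stretches of 75 bases in the GENCODE 29 transcripts, 8.94% of those of GBP2 also occur in another gene, nearly all in GBP7, and 3.79% of those of GBP1, in GBP1P1 and GBP3. The shares were 1.25% for GBP3, 1.24% for GBP4, 0.384% for APOL1 and 0 for the remaining 4 members. GBP7, the main partner of GBP2, had at most 1 count in any library. An antisense gene overlaps part of the GBP4 exons, and whether the counting used strand is not given in the sources used here, so the reads of the 2 genes cannot be told apart there.

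Of 5 other genes of the families, which the choice of members did not take, APOL4 and APOLD1 passed the expression filter and were tested, and GBP6, GBP7 and APOL5 were not. GBP6 had 1, 2 and 1 counts in controls and at most 1 elsewhere, and APOL5 had 0 in all 9 libraries. APOL4, a low-level member of the family, had 31.2, 44.8 and 24.2 normalised counts in controls, 50.4, 56.2 and 48.3 at 24H and 34.9, 41.4 and 26.5 at 48H. All its 24H libraries were above the controls, with a log2 fold change of 0.63 (standard error 0.248) that did not pass over all genes (adjusted p = 0.64), and at 48H it was 0.046 (adjusted p = 0.936). APOLD1, an endothelial gene with an APOL domain that responds to vascular stress, had 585, 586 and 621 normalised counts in controls, 518, 522 and 542 at 24H and 627, 637 and 637 at 48H. Its level rose by 0.27 on the log2 scale between the time-points (standard error 0.0586, edgeR adjusted p = 0.0141). That adjusted p was above 0.05 without TMAO 24H replicate 1 or 2 or TMAO 48H replicate 2, with 0.0662 as the highest. Against controls APOLD1 did not pass at 24H (log2 fold change -0.18, adjusted p = 0.519) or at 48H (0.086, adjusted p = 0.388). Of the stretches of 75 bases in APOLD1, 24.2% occur in DDX47 as well.

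In the genome the GBP genes lie side by side on chromosome 1, in the order GBP3, GBP1, GBP2, GBP7, GBP4, GBP5 and GBP6, and the APOL genes on chromosome 22, in the order APOL6, APOL5, APOL3, APOL4, APOL2 and APOL1. RBFOX2 lies between APOL5 and APOL3. Along chromosome 1 the log2 fold change at 48H was 0.091, 0.38 and 0.67 for GBP3, GBP1 and GBP2 and 1.23 for GBP4, with GBP7 not tested. Along chromosome 22 the pair that was higher, APOL6 and APOL1, stood at the ends of the cluster, with APOL3, APOL4 and APOL2 between them at -0.062, 0.046 and -0.074. Of 13 neighbouring protein-coding genes, 11 were tested, and their log2 fold changes at 48H lay between -0.45 and 0.29. RBMXL1, the neighbour of GBP3 (0.29, adjusted p = 0.0165), and FOXRED2, beyond APOL1 (0.22, adjusted p = 0.0117), were higher at 48H by edgeR's test, as were 5.14% of all genes.

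**Figure D3:**
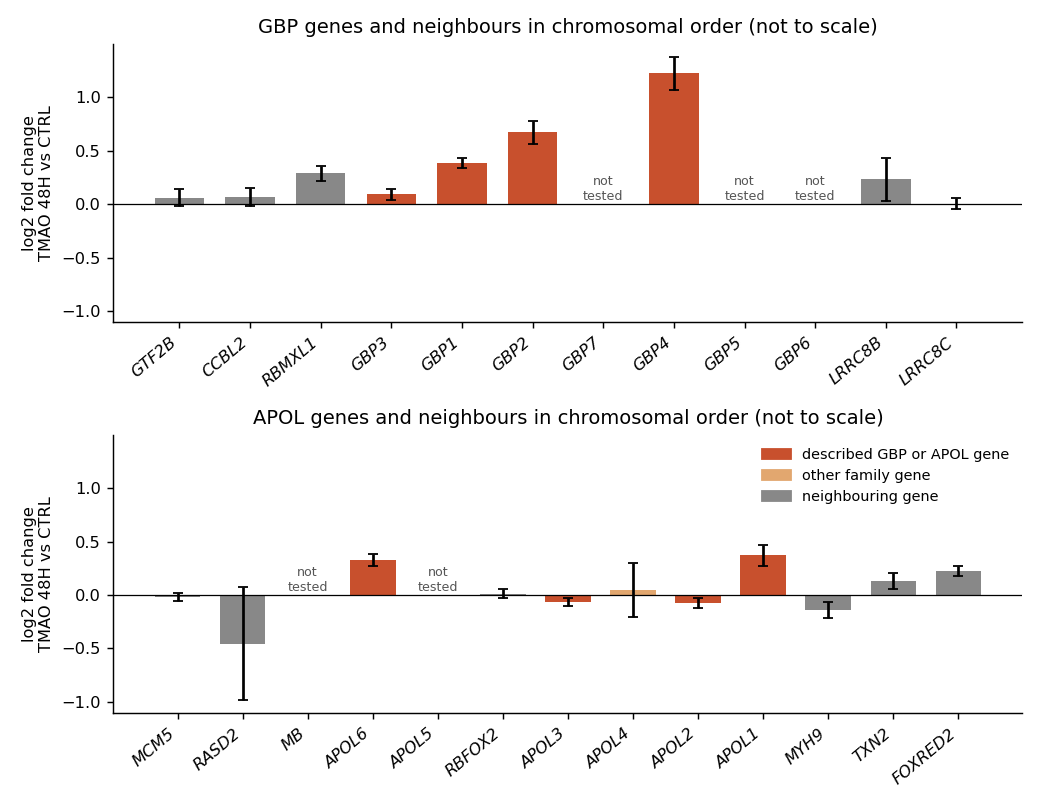
Log2 fold change at 48H against CTRL (bars, with standard errors) of the GBP genes (upper panel) and APOL genes (lower panel) and their neighbours in chromosomal order, spacing not to scale; orange bars are the described genes, light orange bars other family genes and grey bars neighbours. Among the tested GBP genes the bars run from 0.091 at GBP3 to 1.23 at GBP4, and GBP5, GBP6 and GBP7 were not tested. The neighbour before GBP3, RBMXL1, stands at 0.29, and an effect of position was not tested. The bars of APOL3 and APOL2 are below 0 between APOL6 and APOL1.

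The genes that carry interferon and TNF signals to the families were taken from 3 lists of 47 genes, of which 43 were tested. These lists, and those of partners and of other interferon gamma targets below, were chosen with earlier results of these data known. Their counts are a description beside the share of all genes, and no list was tested as a set. At 24H, 0 of them passed with edgeR and 0 with DESeq2 (JAK2 was higher and IFNE lower when p was not adjusted). At 48H 5 rose against controls and 0 fell (14 and 2 at an unadjusted p under 0.05, and 6 and 0 with DESeq2), with a median log2 fold change of 0.071 over the 43, where 5.14% of all genes rose and 5.29% fell. From 24H to 48H 4 rose and 0 fell (13 and 0 at an unadjusted p under 0.05, and 4 and 0 with DESeq2), where 3.77% of all genes rose and 3.77% fell. The count at 48H against controls was 2 without CTRL replicate 1, 2 without TMAO 48H replicate 2 and 3 without CTRL replicate 2.

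Of the ligands, IFNG, IFNB1 and IFNL1 had 0 counts in all 9 libraries, and TNF had 1.12 normalised counts in TMAO 24H replicate 1 and 0 elsewhere. These ligands were therefore below the floor of 3 counts in every group, a limit for counting error only. IFNE, an interferon of epithelia, had 15.6, 8.96 and 11.1 normalised counts in controls, 5.60, 5.44 and 5.37 at 24H and 4.66, 7.05 and 15 at 48H, and passed at neither time (adjusted p = 0.686 and 0.621).

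Among the receptors, IFNGR1 (log2 fold change 0.076, adjusted p = 0.478) and IFNGR2 (0.012, adjusted p = 0.897) did not pass at 48H, nor did IFNAR2 (0.032, adjusted p = 0.763), TNFRSF1A (-0.094, adjusted p = 0.224) or TNFRSF1B (-0.10, adjusted p = 0.372). IFNAR1, a chain of the interferon alpha and beta receptor, rose by 0.16 on the log2 scale (standard error 0.0434, adjusted p = 0.0314). It did not pass in 7 of 17 alternatives, among them those without CTRL replicate 1 or 3, TMAO 24H replicate 1 or TMAO 48H replicate 2 or 3, with an adjusted p of at most 0.134.

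JAK2, a kinase of the interferon gamma receptor, rose by 0.28 on the log2 scale at 48H against controls (standard error 0.0633, adjusted p = 0.0146), with an adjusted p above 0.05 without CTRL replicate 2 and without TMAO 48H replicate 2 (0.068 at most). IRF1, the factor that carries the signal on to GBP genes, had log2 fold changes of 0.060 at 24H (adjusted p = 0.868) and 0.056 at 48H (adjusted p = 0.511). IRF9, which acts with STAT2 on the ISRE, rose from 24H to 48H (0.32, standard error 0.0611, adjusted p = 0.00598) but did not pass against controls (0.19, adjusted p = 0.0605). The rise of IRF7 from 24H to 48H (0.29, adjusted p = 0.0466) did not pass in 11 of 17 alternatives, among them those without any 1 library other than CTRL replicate 3, with an adjusted p of at most 0.159.

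In the NF-kB branch, RELB, the subunit of its noncanonical arm, had 193, 152 and 181 normalised counts in controls, 162, 142 and 169 at 24H and 284, 284 and 234 at 48H. It rose by 0.61 on the log2 scale at 48H against controls (standard error 0.123, adjusted p = 0.00791). NFKBIA, an inhibitor that NF-kB induces, rose by 0.30 (standard error 0.0662, adjusted p = 0.0119), with an adjusted p above 0.05 without CTRL replicate 1 and without TMAO 48H replicate 2 (0.0632 at most). CHUK, a kinase of the pathway, rose by 0.21 (standard error 0.0494, adjusted p = 0.0165), and not without CTRL replicate 1 or 2 (0.0666 at most). RELA (-0.040, adjusted p = 0.668), NFKB1 (0.071, adjusted p = 0.404) and NFKB2 (0.079, adjusted p = 0.317) did not pass at 48H. Among inhibitors of interferon signalling, SOCS1 (-0.36, adjusted p = 0.604), SOCS3 (0.24, adjusted p = 0.139), PTPN2 (-0.016, adjusted p = 0.898), PIAS1 (0.13, adjusted p = 0.134) and USP18 (0.31, adjusted p = 0.0546) did not pass at 48H.

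**Figure D4:**
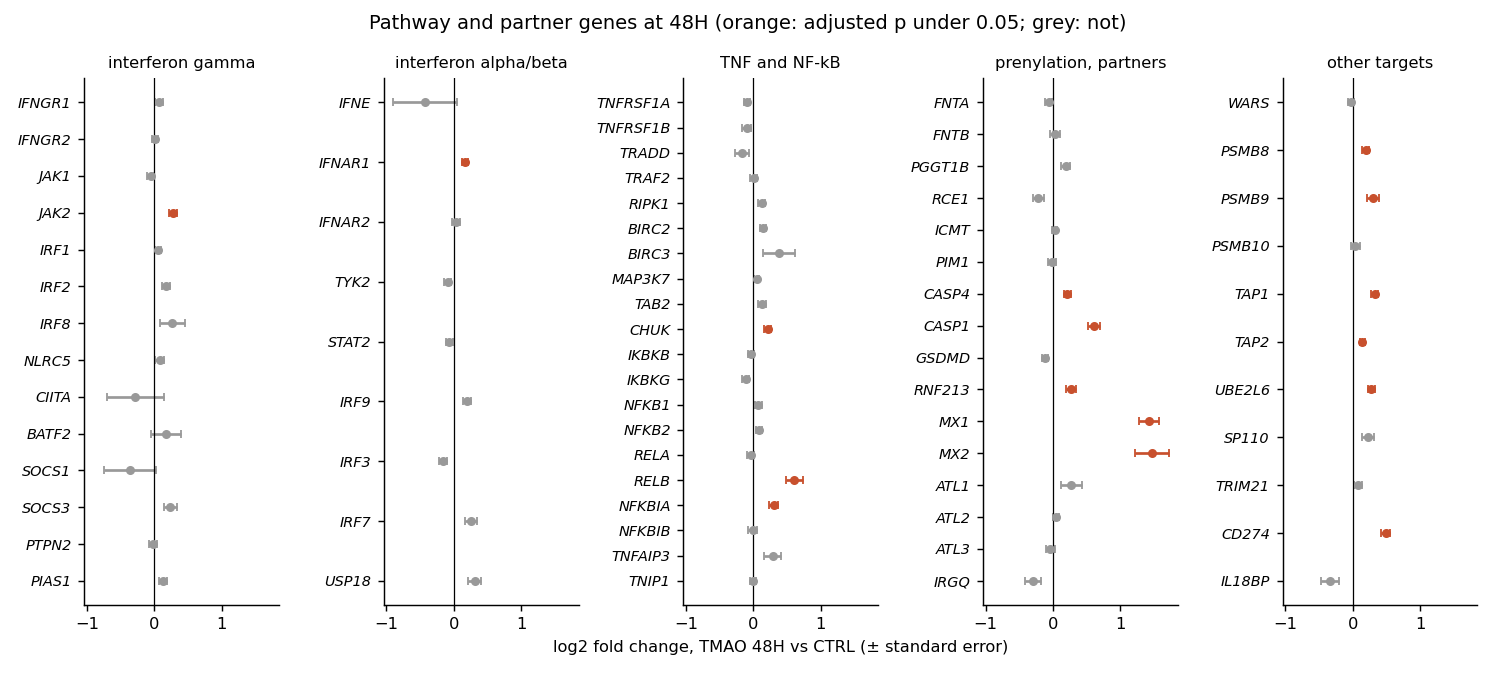
Log2 fold change at 48H against CTRL (horizontal axis, with standard errors) of the tested genes of 5 lists; orange points have an edgeR adjusted p under 0.05 and grey points do not. RELB (0.61), CASP1 (0.61), MX1 (1.42), MX2 (1.47) and CD274 (0.49) are among the orange points, and the interferon gamma and TNF receptors are grey.

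A list of 16 prenylation enzymes, partners and relatives of the GBP proteins, also chosen with earlier results known, was read next. All were tested, and not all are genes that GBP proteins depend on. At 24H 0 passed with edgeR or DESeq2 (RCE1, MX1 and MX2 were lower when p was not adjusted). At 48H 5 rose against controls and 0 fell (6 and 3 at an unadjusted p under 0.05, and 5 and 0 with DESeq2), where 5.14% of all genes rose and 5.29% fell. The prenylation enzymes FNTA, FNTB, PGGT1B, RCE1 and ICMT, which attach and trim the lipid of GBP1, GBP2 and GBP5, had log2 fold changes from -0.22 to 0.19 at 48H and did not pass. CASP1, the caspase of inflammasomes, had 199, 184 and 209 normalised counts in controls, 173, 192 and 184 at 24H and 280, 316 and 304 at 48H, a rise of 0.61 on the log2 scale (standard error 0.0961, adjusted p = 0.00182). CASP4, which GBP coats recruit, rose by 0.21 (standard error 0.0507, adjusted p = 0.0197), and not without CTRL replicate 1 or 3 or TMAO 48H replicate 2 (0.0706 at most). GSDMD, the pore protein that both caspases cut, did not pass (-0.13, adjusted p = 0.0888). The antiviral GTPases MX1 and MX2, relatives of the GBPs in the dynamin superfamily, rose by 1.42 (standard error 0.150, adjusted p = 9.48e-05) and 1.47 (standard error 0.255, adjusted p = 0.00334). MX1 had 596, 559 and 387 normalised counts in controls, 391, 329 and 379 at 24H and 1417, 1597 and 1118 at 48H. RNF213, a ubiquitin ligase of the antimicrobial response, rose by 0.26 (standard error 0.0710, adjusted p = 0.0318) but did not pass in 7 of 17 alternatives, 5 of them without 1 library (CTRL replicate 2 or 3, TMAO 24H replicate 2, TMAO 48H replicate 2 or 3), with an adjusted p of at most 0.137.

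Of 15 other genes known as interferon gamma targets, a list also chosen with earlier results known, 11 were tested. At 24H 0 passed with edgeR or DESeq2 (CD274 was lower when p was not adjusted). At 48H 6 rose and 0 fell (7 and 1 at an unadjusted p under 0.05, and 6 and 0 with DESeq2), with a median log2 fold change of 0.19, beside 0.0040 over all genes, of which 5.14% rose and 5.29% fell. CD274, which encodes PD-L1, rose by 0.49 (standard error 0.0629, adjusted p = 0.000435), TAP1, which carries peptides to HLA class I, by 0.33 (standard error 0.0520, adjusted p = 0.00194) and UBE2L6, the ISG15-conjugating enzyme, by 0.28 (standard error 0.0510, adjusted p = 0.00456). PSMB8 (0.19, adjusted p = 0.0246), PSMB9 (0.31, adjusted p = 0.0422) and TAP2 (0.14, adjusted p = 0.0311) also passed, in 11, 8 and 8 of 17 alternatives, and leaving out TMAO 48H replicate 2 raised each of them above 0.05, as did leaving out CTRL replicate 3. Other single libraries did so for PSMB8 (CTRL replicate 1 and TMAO 48H replicate 1), for PSMB9 (CTRL replicates 1 and 2, TMAO 24H replicates 1 and 2 and TMAO 48H replicate 1) and for TAP2 (CTRL replicate 2, TMAO 24H replicates 1 and 2 and TMAO 48H replicate 3), with adjusted p-values of at most 0.14. The chemokine CXCL9 had 0 counts in all 9 libraries. CXCL10 had at most 5.82 and CXCL11 at most 7.79 normalised counts in any library, and IDO1 at most 2.33.

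The genes nearest to each family were found by the root mean square difference between control-centred log2 profiles over the 9 libraries, with a mean of at least 50 normalised counts. For the mean profile of the 4 fitted GBP genes (0.063 at 24H and 0.60 at 48H), they were CDKN1A (0.0601), GPX3 (0.0763), IL6R (0.0882), CYP27A1 (0.0899) and FMNL1 (0.0926). The log2 fold changes of these 5 genes lay between 0.46 and 0.58 at 48H. Those of the GBP genes ranged from 0.091 for GBP3 to 1.23 for GBP4, so a gene near their mean is not near each member. For the mean profile of the 4 APOL genes (-0.011 at 24H and 0.14 at 48H), they were VEZF1 (0.0193), ATP6V1A (0.0218), TMEM30A (0.0223), FAM98B (0.0225) and TBCEL (0.0235). The APOL mean joins a pair of genes that was higher at 48H and a pair that was not, and describes none of its members closely.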

How the data were processed

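RNA sequencing was performed on 9 HMEC-1 libraries in 3 groups of 3. The authors processed reads of 150 bases with the nf-core RNAseq pipeline version 3.6 and deposited estimated counts (expected counts) per gene, without normalisation. The quantifier, genome build and annotation are not given in the sources used here. Total counts ranged from 25205756 to 36927373, and intervals and floors cover counting error only. Estimated counts were rounded (14.7% of values were not whole). The 14740 genes kept by filterByExpr were scaled by TMM and fitted over the 9 libraries together by edgeR's quasi-likelihood method (edgeR 4.0.16, R 4.3.3, legacy = FALSE), and standard errors were taken from the F statistic. Genes passed at a Benjamini-Hochberg adjusted p under 0.05 and were called with at least 1.4-fold in addition. A permutation test of 3 against 3 cannot go below p = 0.1. The procedure was tested on simulated data. Groups came from the labels. The members, lists and tests were chosen with earlier results of these data known. Named genes were all members, list genes that passed or define a pathway (ligand, receptor, IRF1), and the 5 nearest profiles per family. Others (such as neighbours, marker genes and non-passing list genes) were chosen after their values were seen. Alternatives were RLE factors, DESeq2 1.42.0, other filters, the older fit, fits of only the groups compared, a replicate block, removal of ribosomal RNA genes and leaving out each library. Protein sequences and the promoters of the other 6 members were not used here, and 1 pathway gene is not reported here.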

Additional observations from a re-analysis of the deposited data

Results flagged for a closer look

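Genes were taken up here when the difference between TMAO 48H and TMAO 24H was itself larger than the replicate error over all genes tested. The change from the shared controls then differed between the time-points. Time in culture and length of treatment both differ between these time-points and cannot be told apart. The log2 difference between 48H and 24H, with edgeR's adjusted p below 0.05, was 0.32 for IRF9, 0.29 for IRF7, 0.76 for RELB and 0.39 for NFKBIA among the signalling genes. Among partners and relatives of the GBP proteins it was 0.71 for CASP1, 1.91 for MX1 and 2.10 for MX2. Among other interferon gamma targets it was 0.23 for PSMB8, 0.32 for TAP1, 0.18 for TAP2, 0.36 for UBE2L6 and 0.66 for CD274. For APOLD1 it was 0.27. The adjusted p was above 0.05 for PSMB8 without TMAO 24H replicate 2 or 3 (at most 0.0587) and for TAP2 without TMAO 24H replicate 1 or TMAO 48H replicate 2 (at most 0.083), and the libraries on which IRF7 and APOLD1 depend are named with their values above.

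In GBP4, APOL1 and APOL3 the 3 libraries of one time-point all lay above the control mean and the 3 of the other all below it. How many of all genes show this pattern was not counted. The 24H libraries of GBP4 lay inside the control range, and its log2 fold change at 24H was 0.088 without CTRL replicate 2. For APOL1 the highest 24H library (201.4 normalised counts) was just below the lowest control (201.5), and for APOL3 the 48H libraries overlapped the controls. The log2 differences between 48H and 24H were 1.29 for GBP4, 0.51 for APOL1 and -0.13 for APOL3. These values are a description: edgeR's fit covers this difference, but its p-values are not given for members, which were chosen with results from the 48H libraries known, and whether the changes from the control mean were opposite in sign was not tested.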

How the results depend on the processing

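Members and lists were given 53 log2 fold changes. Under the alternatives, 897 of their values kept their sign and 4 did not: GBP1 (0.029) and GBP4 (0.088) at 24H without CTRL replicate 2 (ranges without single libraries -0.036 to 0.029 and -0.16 to 0.088), and GBP3 (-0.0012) and APOL2 (0.0094) at 48H against 24H without TMAO 48H replicate 1. The cause of these sign changes was not tested. List genes and APOLD1 entered only with values that passed in the main fit, so a kept sign was likely in advance and says little. Members were likewise chosen with their values at 48H known. In 66 values of list genes and APOLD1 the sign was kept but the adjusted p was no longer under 0.05. At 48H against controls the ranges were 0.35 to 0.43 for GBP1, 0.58 to 0.78 for GBP2, 1.13 to 1.38 for GBP4, 0.34 to 0.41 for APOL1 and 0.29 to 0.37 for APOL6. Of all genes, 7 were called at 24H, 265 at 48H and 252 between 48H and 24H. Without a fold threshold these counts were 14, 1537 and 1110, as fewer conditions apply, and DESeq2 gave 11 at 24H. Leaving out single libraries gave 0 to 9 at 24H (0 without TMAO 24H replicate 2 and 3 without CTRL replicate 2), 187 to 339 at 48H and 193 to 257 between 48H and 24H. Pathway genes passing numbered 0 at 24H in each of these fits, 2 to 6 at 48H (2 without CTRL replicate 1 or TMAO 48H replicate 2, 3 without CTRL replicate 2) and 3 or 4 between the time-points. A fit of only the groups compared gave 3 pathway genes at 48H in place of 5. Same-numbered libraries did not deviate together (the lowest of 9 correlations was -0.12 and the highest 0.091, while the 18 pairs with different numbers lay between -0.10 and 0.16). These correlations show no strong shift shared by number. They cannot exclude that same-numbered libraries were prepared together, and the labels do not say. With a replicate block, 1 gene was called at 24H, 214 at 48H and 213 between them, and 0, 5 and 3 pathway genes passed. Of the members, 4 then had an adjusted p under 0.05 at 48H against controls and 3 between the time-points, in place of 5 and 5. Low counts limit GBP5, the ligands and CXCL9 to CXCL11, which could not be followed at this depth.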
